A study of Homo sapiens with 6 samples.

Results

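The 13q14 stretch around RB1 is a window of human chromosome 13 (hg19, 45 to 50 Mb) in which the peaks of 2 lists, ubiquitylated and total H2A.Z, were merged where they overlapped or touched and kept where the midpoint of the merged region lay in the window. It holds 187 of the 198179 merged regions of the series. The window had been selected on the authors' fold changes, because few of those within it favoured the ubiquitylated form, so the direction of its regions and the peak lists they come from are given here as a description and were not tested.

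The cells were HEK293T, an established human embryonic kidney line that carries the SV40 large T antigen. Every group came from cells transfected with H2A.Z-1 fused at its C-terminus to Flag-BirA and, at a plasmid ratio of 3 to 1, with ubiquitin tagged at its N-terminus with AviTag, collected 48 hours later and digested with micrococcal nuclease for 30 minutes. BirA biotinylates the AviTag, so streptavidin recovered nucleosomes that carried tagged ubiquitin close to the tagged histone (ubiquitylated H2A.Z, 2 samples), whereas Flag agarose recovered all tagged H2A.Z (total H2A.Z, 2 samples). Histone H3 was immunoprecipitated in another 2 samples, which enter no comparison here. The tagged histone came from a plasmid and was present beside the cells' own H2A.Z, which neither pull-down selects. Separate cultures are not mentioned for the replicates in the labels, and the spread behind the authors' error rates may be technical alone. The lists hold no counts, so the depth per library is unknown and no value per replicate can be given for any region.

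The histone variant H2A.Z replaces H2A at nucleosomes flanking transcription start sites and at enhancers. A part of it carries a single ubiquitin near its C-terminus, attached by RING1-type ligases of Polycomb complexes, a form known from silent chromatin such as the inactive X chromosome. RB1 encodes the retinoblastoma protein, a tumour suppressor that restrains entry into the cell cycle and is bound by large T antigen. Its neighbours on the centromere side in the RefSeq gene order include ITM2B, a membrane protein gene, MED4, a Mediator subunit, and SUCLA2, a mitochondrial succinate-CoA ligase subunit, and on the other side RCBTB2 and CYSLTR2, a leukotriene receptor. The RefSeq tables used here are of GRCh38 and the peaks are of hg19. No region was therefore assigned to a gene, regions are named by position, and their base sequences are not shown.

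Ubiquitylated H2A.Z had fewer peaks than total H2A.Z in the stretch. There were 100 ubiquitylated peaks covering 33.1 kb and 156 total peaks covering 50.5 kb, a ratio of 0.641 by number. The same ratio was 0.842 over the rest of chromosome 13 and 0.999 over the whole series, where the lists hold 143617 and 143756 peaks. Of the 187 merged regions, 32 had ubiquitylated peaks only (17.1%, Wilson 95% interval 12.4 to 23.2%), 67 had peaks of both lists (35.8%, 29.3 to 42.9%) and 88 had total peaks only (47.1%, 40.04 to 54.2%). Over the whole series these classes made up 28.9%, 41.9% and 29.2%. The share of regions with both peaks was 35.8% in the stretch and 35.7% in the rest of chromosome 13. The ubiquitylated-only share was 17.1% in the stretch and 26.1% in the rest of that chromosome, which pools unlike parts. In its other 5 Mb windows this share ran from 12.7% (65 to 70 Mb) to 69.2% (15 to 20 Mb, 13 regions). The window with most regions, 415 from 110 to 115 Mb, had 57.1%. None of these shares was tested between the stretch and the rest. The intervals cover counting error only.

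**Figure D1:**
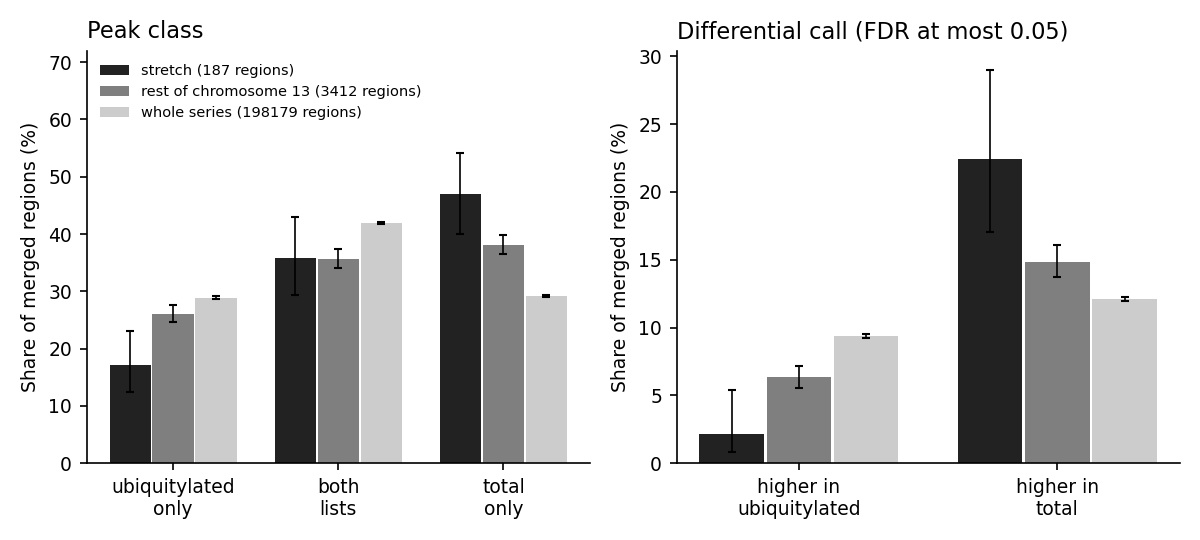
Shares of merged regions by peak class (left) and by differential call (right), in percent, for the stretch, the rest of chromosome 13 and the whole series, with Wilson 95% intervals as error bars. Of the 3 sets, the stretch has the shortest bar for ubiquitylated peaks only (17.1%) and for regions higher in ubiquitylated H2A.Z (2.14%), and the tallest for total peaks only (47.1%) and for regions higher in total H2A.Z (22.5%).

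A region counted as differential in the authors' deposited table when the false discovery rate (FDR) for ubiquitylated over total H2A.Z was at most 0.05. In all, 46 of the 187 regions were differential (24.6%, against 21.5% of all 198179 regions). The authors' deposited table puts 4 of them higher in ubiquitylated H2A.Z (2.14% of the stretch, against 9.39% of all regions) and 42 higher in total H2A.Z (22.5%, against 12.1%). Regions higher in ubiquitylated H2A.Z were therefore 8.70% of the differential ones (4 of 46, Wilson 3.43 to 20.3%). This share was 29.9% in the rest of chromosome 13 and 43.7% over the whole series. Other 5 Mb windows of chromosome 13 ranged from 10.0% (70 to 75 Mb) to 100% (15 to 20 Mb, 5 calls). The one with most calls, 93 from 110 to 115 Mb, had 65.6%. The remaining 141 regions were in neither differential list. Streptavidin and Flag agarose are different reagents, and what they recover unequally cannot be told apart from unequal ubiquitylation. Every direction is relative to the authors' scaling between libraries, which the labels and files do not describe.

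The differential calls followed the peak classes. The 32 regions with ubiquitylated peaks only held 3 calls towards ubiquitylated H2A.Z (9.38%, Wilson 3.24 to 24.2%; 23.8% over the series) and 0 towards total H2A.Z. Among the 88 regions with total peaks only, the calls were 0 towards ubiquitylated and 35 towards total H2A.Z (39.8%, 30.2 to 50.2%; 30.5% over the series). Regions with peaks of both lists held 1 call towards ubiquitylated (1.49%, against 5.97% over the series) and 7 towards total H2A.Z (10.4%, against 7.52%). Peak class and call come from the same libraries and are not separate lines of evidence. Most ubiquitylated-only regions (29 of 32) and most total-only regions (53 of 88) were thus in neither differential list.

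Read against the adjoining 5 Mb windows of chromosome 13, the stretch held fewer calls towards ubiquitylated H2A.Z and about as many towards total H2A.Z. Regions higher in ubiquitylated H2A.Z were 4 in the stretch (2.14%), 10 of 169 from 40 to 45 Mb (5.92%) and 12 of 181 from 50 to 55 Mb (6.63%). Regions higher in total H2A.Z were 22.5% of the stretch, 23.1% of the regions from 40 to 45 Mb and 23.2% of those from 50 to 55 Mb. Moving both edges by 1 Mb towards the short arm gave 7 regions higher in ubiquitylated and 43 higher in total H2A.Z, and moving them towards the long arm end gave 5 and 47. These differences were not tested.

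The genome holds 515 windows of 5 Mb in which 20 or more regions were differential, and 2 of them had a lower share of calls towards ubiquitylated H2A.Z than the stretch and 512 a higher one. The lower ones were chromosome 15 from 55 to 60 Mb, with 1 of 20, and chromosome 4 from 95 to 100 Mb, with 2 of 26. The stretch was selected because few of its fold changes favoured the ubiquitylated form, so its low rank follows from the choice and is no evidence. The windows were ranked only at these edges and this limit of the FDR. With both edges moved 1 Mb towards the short arm the ubiquitylated calls were 7 of 50, and towards the long arm end 5 of 52. At an FDR of at most 0.01 in the authors' deposited table, a subset of the same calls, they were 3.85% of 26, against 42.2% over the series. Close above lay chromosome 15 from 40 to 45 Mb, with 9.21% of 76, and another window of chromosome 13, from 70 to 75 Mb, with 4 of 40. The median window stood at 33.3%, with quartiles of 23.0% and 51.4%. In the number of merged regions the stretch, with 187, was not extreme, since 190 windows held fewer and 323 held more. Its 17.1% of ubiquitylated-only regions was undercut in 13 windows, and its 47.1% of total-only regions was exceeded in 28. The windows of chromosome 15 (40 to 45 Mb) and chromosome 6 (40 to 45 Mb) had like shares of calls towards ubiquitylated H2A.Z. On chromosome 15, 3.37% of 208 regions were called towards ubiquitylated and 33.2% towards total H2A.Z, and 24.0% had ubiquitylated peaks only. The window of chromosome 6 was close to the stretch in these shares. Of its 600 regions, 2.17% were called towards ubiquitylated and 18.8% (Wilson 15.9 to 22.2%) towards total H2A.Z, and 19.0% had ubiquitylated peaks only. Chromosome 13 from 70 to 75 Mb was close too, with 2.23% of 179 regions called towards ubiquitylated and 20.1% towards total H2A.Z. Ubiquitylated peaks only were found in 14.5% of these 179 regions and total peaks only in 46.9%.

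**Figure D2:**
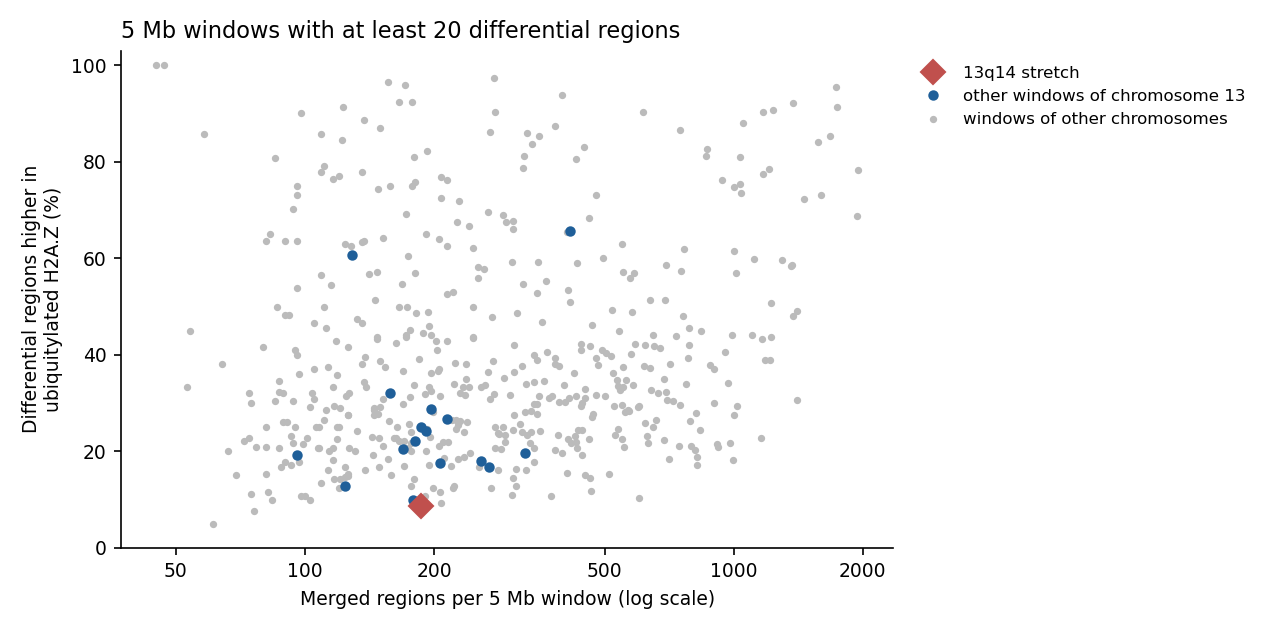
Share of differential calls that go towards ubiquitylated H2A.Z (percent) against the number of merged regions (log scale), for the 515 windows of 5 Mb in which 20 or more regions were differential. The 13q14 stretch, at 8.70% and 187 regions, lies at the lower edge of the cloud and in the middle of the range of region numbers.

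The 4 regions higher in ubiquitylated H2A.Z lay apart from each other. Their median log2 fold change was 0.69 in the authors' deposited table, against 0.68 for all 18614 such regions of the series. By class it was 0.70 for the 3 with ubiquitylated peaks only, against 0.76, and 0.45 for the 1 with both peaks, against 0.51. The median FDR of the 4 was 0.031 in the authors' deposited table, against 0.0075 over the series. So few values cannot be set against the series. The authors' deposited table gave chr13:46287160-46288635 a log2 fold change of 0.45 and an FDR of 0.0045. This region is 1476 bp wide, the widest of the stretch, and the only one of the 4 with a peak in both lists. Its ubiquitylated peak spans 1476 bp (IDR 0.000157) and its total peak 1411 bp (IDR 0.00231), where the IDR is the authors' irreproducible discovery rate, low for a peak that repeats well between replicates. The other 3 had ubiquitylated peaks only. For chr13:45639589-45639816 (228 bp) the authors' deposited table gave a log2 fold change of 0.79 with an FDR of 0.035. For chr13:46659942-46660282 (341 bp) the authors' deposited table gave 0.67 (log2) with an FDR of 0.03. For chr13:49879618-49879845 (228 bp) the authors' deposited table gave 0.70 (log2) with an FDR of 0.032. In the authors' deposited table, 0 of the 4 changed by at least 2-fold (15.6% over the series) and 1 had an FDR of at most 0.01 (56.0% over the series), counts too small to set against those shares. The nearest region higher in total H2A.Z was 75.5 kb, 29.0 kb, 126 kb and 56.8 kb away from the regions beginning at 45639589, 46287160, 46659942 and 49879618.

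The 42 regions higher in total H2A.Z were given log2 fold changes with a median of -0.89 by the authors' deposited table (quartiles -0.98 and -0.68, range -1.72 to -0.47), against -0.76 for all 23960 such regions of the series. At least 2-fold changes numbered 9 of the 42 in the authors' deposited table (21.4%, against 19.8% over the series), and 25 had an FDR of at most 0.01 (59.5%, against 59.6%). A 95% interval computed here around the median of the stretch ran from -0.93 to -0.82. It takes the 42 regions as independent and comes from the fold changes used for the selection. It is therefore no test against the series. The 35 with total peaks only had a median of -0.90 in the authors' deposited table, against -0.84 over the series, and the 7 with both peaks one of -0.68, against -0.56. These differences were not tested, and the window was selected on the same fold changes.

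By FDR in the authors' deposited table, chr13:45915587-45916034 came first (448 bp, log2 fold change -1.36, FDR 3.2e-07). It was followed by chr13:49822149-49822797 (649 bp), with a log2 fold change of -0.98 and an FDR of 4.8e-07 in the authors' deposited table. The region chr13:47467967-47468322 (356 bp) had -1.47 (log2) and an FDR of 2.1e-06 in the authors' deposited table, and its total peak, with an IDR of 6.18e-05, was among the 3 lowest of the total peaks of the stretch. The largest change lay at chr13:49821653-49821921 (269 bp, log2 fold change -1.72, FDR 2.2e-06 in the authors' deposited table), 227 bp before the region beginning at 49822149. Another large one, chr13:45992702-45992864, is 163 bp wide, close to the length of DNA in 1 nucleosome, and had a log2 fold change of -1.54 with an FDR of 0.00011 in the authors' deposited table. Each of these 5 regions had a total peak and no ubiquitylated peak. The remaining one of the 5 largest changes was chr13:48878461-48878756, with a total peak only (-1.32 log2, FDR 3.3e-05 in the authors' deposited table). The other 6 of the 12 regions with the lowest FDR were chr13:46039110-46039681, chr13:48574887-48575327, chr13:49549334-49549900, chr13:49169225-49169803, chr13:49107010-49107511 and chr13:47127451-47128663. The authors' deposited table gave these 6 between -0.93 and -0.62 (log2), and the last of them was the only one of the 12 with peaks of both lists.

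**Figure D3:**
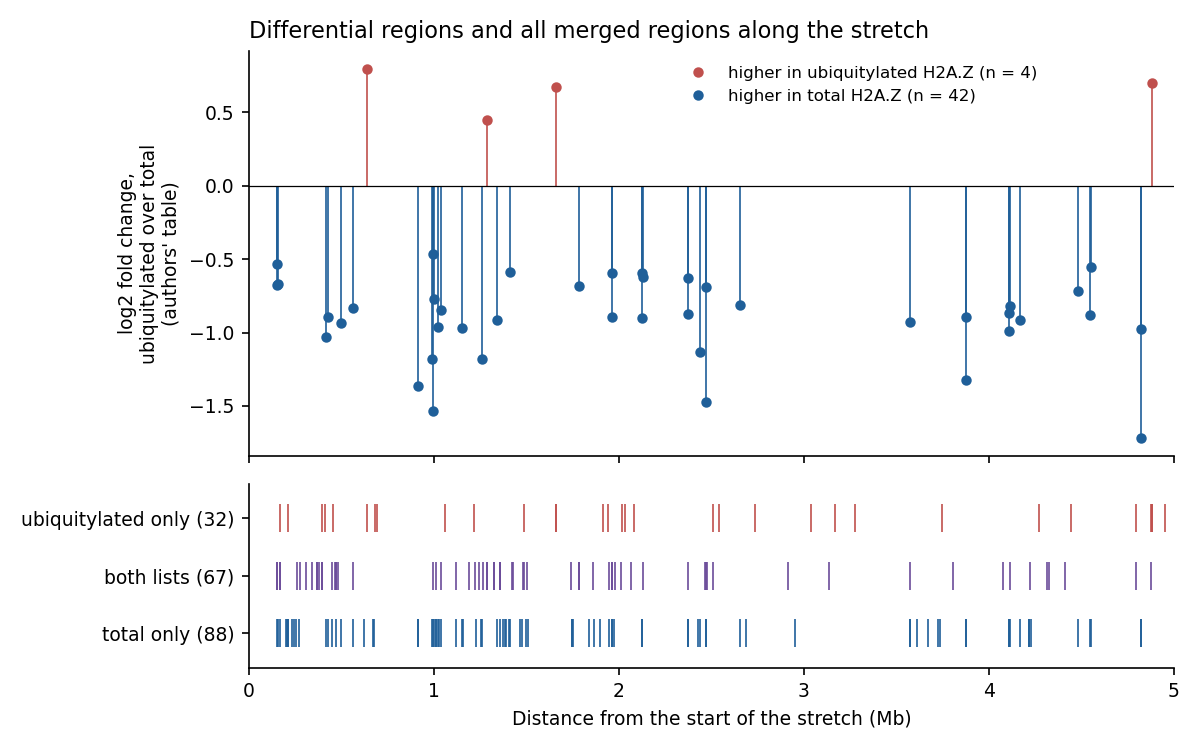
Upper panel, log2 fold change (ubiquitylated over total H2A.Z) for the 46 differential regions of the authors' deposited table, against the distance from the start of the stretch in Mb. Lower panel, positions of all 187 merged regions by peak class; the 4 positive values stand singly among 42 negative ones, and the regions thin out in the middle of the stretch.

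Along the stretch the merged regions were dense at the centromere side and thin in the middle. Tiles of 0.5 Mb held 39 regions from 45 to 45.5 Mb and 43 from 46.0 to 46.5 Mb, but 8 from 47.5 to 48.0 Mb and 4 from 48.0 to 48.5 Mb. The tiles with fewest regions also had the fewest calls, 1 of 8 and 0 of 4, while the share of regions called varied among the others. The tile from 47.0 to 47.5 Mb had 8 differential regions among 18 (44.4%), all higher in total H2A.Z, and the tile from 45.5 to 46.0 Mb had 6 among 13 (46.2%). In the densest tile, 46.0 to 46.5 Mb, 8 of 43 were differential (18.6%). In the tile from 48.0 to 48.5 Mb, 3 of the 4 regions had ubiquitylated peaks only. The longest interval without any peak, 298 kb, ran from 48277231 to 48574887, and 9 of the 186 intervals between neighbours exceeded 100 kb.

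**Figure D4:**
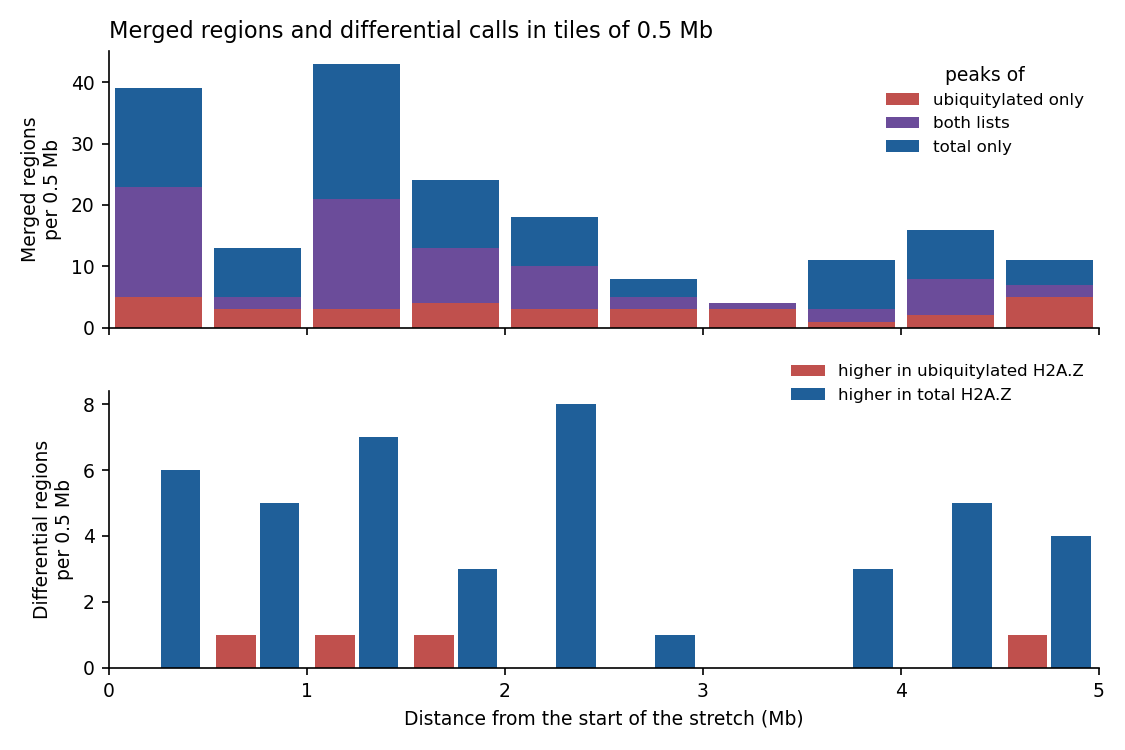
Number of merged regions by peak class (upper panel) and of differential regions by direction (lower panel) in tiles of 0.5 Mb, against the distance from the start of the stretch in Mb. Regions fall to 4 in the tile 3.0 to 3.5 Mb from the start, and calls towards total H2A.Z, up to 8 in a tile, appear in 9 of the 10 tiles.

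In order of position, the 4 regions higher in ubiquitylated H2A.Z stood singly among series of regions higher in total H2A.Z. Long series follow from the split of 4 to 42, on which the window was selected, and are given only to show where the 4 lie. From chr13:46785847 to 49822797, over 3.04 Mb, 24 consecutive differential regions were higher in total H2A.Z, and their median was -0.88 on the log2 scale of the authors' deposited table. This interval held 78 merged regions in all, so 54 of them were in neither list. Before it, series of 7, 9 and 2 regions higher in total H2A.Z were separated by single regions higher in ubiquitylated H2A.Z. The 2 megabases with most differential regions, from 45 to 46 and from 46 to 47 Mb, held 12 each. Without 45 to 46 Mb, 3 of 34 differential regions were higher in the ubiquitylated form (8.82%), and without 46 to 47 Mb 2 of 34 (5.88%).

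The 0.5 Mb from 48.5 to 49.0 Mb held 11 regions: 1 with ubiquitylated peaks only, 2 with peaks of both lists and 8 with total peaks only. At its start 3 regions lay within 1.66 kb, of which chr13:48574887-48575327 was higher in total H2A.Z (log2 fold change -0.93, FDR 0.00018 in the authors' deposited table). The next 2, chr13:48575816-48576018 with a total peak only and chr13:48576249-48576548 with peaks of both lists, were in neither differential list. The ubiquitylated peak within the last of these was the more reproducible one, with an IDR of 0.000245 against 0.00565 for the total peak. That order is common: the ubiquitylated IDR was the lower in 72.3% of such pairs in the stretch and 69.5% over the series. Farther along, chr13:48877443-48877779 and chr13:48878461-48878756 lay 681 bp apart, both with total peaks only. Their log2 fold changes were -0.89 (FDR 0.0038) and -1.32 (FDR 3.3e-05) in the authors' deposited table. No further peak of either list followed for 198 kb. The next region, chr13:49076800-49077053, holds the most reproducible ubiquitylated peak of the stretch (IDR 4.87e-06) together with a total peak (IDR 0.004) and was in neither differential list. It was followed by chr13:49106437-49106792 and chr13:49107010-49107511, again with total peaks only, at -0.99 (FDR 0.00032) and -0.87 (FDR 0.00022) on the log2 scale in the authors' deposited table.

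Some regions called towards total H2A.Z stood side by side. With neighbours joined where they lay at most 5 kb apart, the 187 regions formed 113 groups, of which 69 were single regions and the largest held 5. A region higher in total H2A.Z was found in 29 groups. In 10 groups at least 2 regions were higher in total H2A.Z, and these groups held 23 of the 42. All 3 regions of chr13:47126215-47128663 and all 3 of chr13:45988480-45992864 were called towards total H2A.Z. Pairs with total peaks only and no other neighbour included chr13:49549334-49550604 and chr13:49821653-49822797. The same grouping was not made over the series. Regions this close may share nucleosomes or reads and do not count as independent.

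The members had a lower median width and lay farther apart than regions over the series, and neither difference was tested. The median width was 269 bp (quartiles 189 and 396 bp), against 278 bp in the rest of chromosome 13 and 313 bp in all other regions, and 434 of the 515 windows had a wider median. By class it was 237 bp for ubiquitylated-only, 349 bp for shared and 215 bp for total-only regions, where the series had 276, 425 and 251 bp. At least 1 kb was reached by 4 regions (2.14%), against 4.92% of all other regions. Widest among the shared regions after the 1476 bp one were chr13:47127451-47128663 (1213 bp), higher in total H2A.Z, and chr13:46961824-46962863 (1040 bp), in neither list. Single-list regions stayed below 1 kb. The widest with ubiquitylated peaks only were chr13:47510083-47510727 (645 bp), chr13:46059805-46060380 (576 bp) and chr13:47734037-47734604 (568 bp), all in neither differential list. With total peaks only, chr13:45446996-45447646 (651 bp) was in neither list, while chr13:49822149-49822797 (649 bp) and chr13:49169225-49169803 (579 bp) were higher in total H2A.Z. The median interval between neighbours was 9.21 kb, against 2.16 kb over the series. Wide spacing is not particular to the stretch by density, which was 37.4 regions per Mb. The adjoining windows had 33.8 (40 to 45 Mb) and 36.2 (50 to 55 Mb), and their intervals were not computed. From a ubiquitylated-only region the nearest region with a total peak was a median of 11.8 kb away (2.33 kb over the series), and 53.1% had none within 10 kb (24.8%). From a total-only region the nearest region with a ubiquitylated peak was a median of 7.96 kb away (2.44 kb over the series), and 40.9% had none within 10 kb (25.8%). These distances move with the lower density of regions, whose part in them was not tested.

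The 3 called ubiquitylated-only regions had a median width of 228 bp and the 29 not called one of 241 bp, whereas the series had 415 and 250 bp. Called total-only regions had a median of 279 bp (35 regions) and those not called one of 201 bp (53 regions), and the series showed 311 and 231 bp. The widest ubiquitylated-only region of the stretch, at 645 bp, was among those not called. The part of width in the calls was not tested.

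In the 65 shared regions with 1 peak of each list, the ubiquitylated peak was the wider in 18 and the total peak in 47 (72.3%). Over the series the total peak was the wider in 54.6% of 77834 such regions. Medians in the stretch were 289 bp for ubiquitylated and 327 bp for total peaks, and the series had 338 and 355 bp. Among the 57 pairs in neither differential list, the ubiquitylated peak was the wider in 17 and the total peak in 40 (70.2%, against 53.9% over the series). In all 7 shared regions called towards total H2A.Z the total peak was the wider, which over the series held for 97.4%. The extreme was chr13:47127451-47128663, where the ubiquitylated peak spans 375 bp inside a total peak of 1213 bp. At chr13:45149843-45150744 the widths were 510 bp and 902 bp. Peaks form a pair only where they overlap or touch, so their closeness is partly given by the merging. Their midpoints lay a median of 14 bp apart, against 19.5 bp over the series. Both peaks covered a median of 87.2% of the merged region, against 84.9%. Width and fold change rest on the same libraries, and the difference in width between the stretch and the series was not tested.

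**Figure D5:**
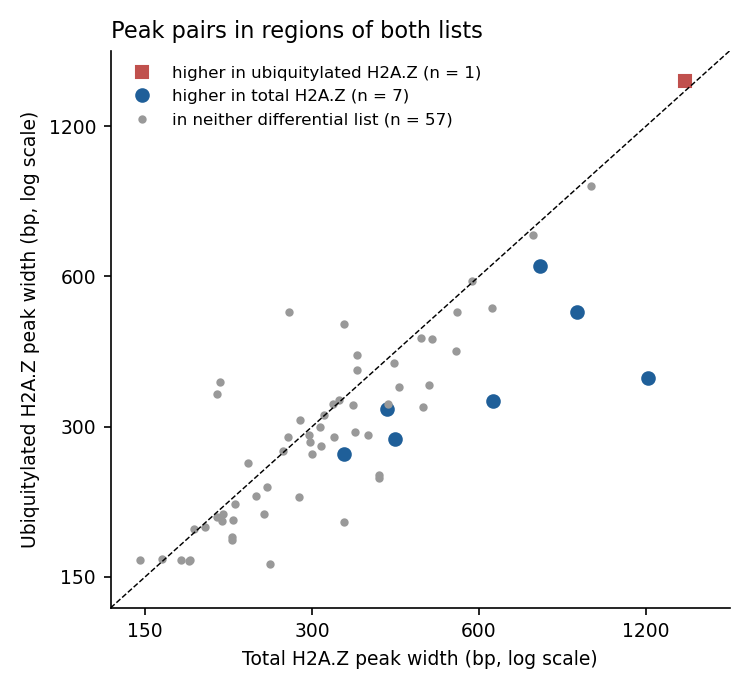
Width of the ubiquitylated H2A.Z peak against that of the total H2A.Z peak, in bp on log scales, for the 65 regions of the stretch with 1 peak of each list; the dashed line marks equal width. Most points (47) lie below the line, where the total peak is wider, including all 7 regions higher in total H2A.Z, and the 1 region higher in ubiquitylated H2A.Z lies just above it.

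By median IDR the peaks of the stretch were slightly less reproducible than those of the series, a difference that was not tested. The median IDR was 0.00141 for the 100 ubiquitylated and 0.00379 for the 156 total peaks, against 0.00137 and 0.00335 over the series. An IDR of at most 0.01 was reached by 80 of the 100 ubiquitylated peaks and 109 of the 156 total peaks (69.9%), against 83.1% and 74.1% over the series. In the ubiquitylated list, peaks in shared regions had a median of 0.00127 and single ones 0.00269, against 0.000987 and 0.00226 over the series. In the total list the medians were 0.00304 and 0.00581, against 0.00296 and 0.00403. The most reproducible total peak was chr13:46243816-46244363 (IDR 8.82e-06), which overlapped a ubiquitylated peak and was in neither differential list. The ubiquitylated peak chr13:49883294-49883464 (171 bp, IDR 1.31e-05), in neither differential list, had no total counterpart. Next to these 2 in their lists stood the ubiquitylated peak chr13:49324910-49325071 (IDR 1.33e-05) and the total peak chr13:46323520-46323735 (IDR 3.08e-05), each in a shared region that was in neither differential list.

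At the edges of the window the pattern was mixed. Just outside the start, chr13:44989845-44990675 (ubiquitylated only) and chr13:44996937-44997351 (both lists) were in neither differential list. Before them, close to the start, chr13:44987478-44988222 and chr13:44988525-44989312 were higher in ubiquitylated H2A.Z (log2 fold changes of 0.68 and 0.61 with FDRs of 0.00089 and 0.0015 in the authors' deposited table). The first region inside the start, with its midpoint 0.15 Mb from that edge, was chr13:45149843-45150744. It was higher in total H2A.Z (log2 fold change -0.53, FDR 0.0064 in the authors' deposited table). The last 2 regions inside the end, chr13:49883294-49883464 and chr13:49951569-49952054, had ubiquitylated peaks only and were in neither list. Just beyond it, chr13:50018439-50018907 and chr13:50019759-50020019 were higher in total H2A.Z (-0.60 and -0.71 on the log2 scale in the authors' deposited table).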

How the data were processed

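Per the submitters' processing notes, Bowtie, SAMtools, MACS2, edgeR and build hg19 were used; their versions and settings are not given. For each H2A.Z pull-down the authors deposited 1 list of peaks, with a value of at most 0.05 per peak, which was read as the IDR, a q-value-like measure; whether it is local or global is not stated. Another 2 lists deposited by the authors give the regions that differed, each with an FDR and a fold change, read as log2 ubiquitylated over total because edgeR is listed; the base is not stated. The files hold no counts, so no count model was fitted and depth is unknown.

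Starts were raised by 1 base. Peaks were merged where they overlapped or touched, and all 42574 differential regions matched a merged region exactly. Merging and placement were tested on simulated peaks. Wilson intervals (95%) cover counting error only. The window, the region rules and the gene lists were chosen with earlier results of these data known. Regions named were all those higher in ubiquitylated H2A.Z, the 12 of lowest FDR and 5 of largest change higher in total, the 3 widest per class, the 3 peaks of lowest IDR per list and the longest gap; those from 48.5 to 49.2 Mb, at the edges and in groups were chosen after their values were seen. Values were computed in Python 3.11.15 (pandas 2.3.3, numpy 2.4.6, scipy 1.17.1) and drawn with matplotlib 3.10.9.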

Additional observations from a re-analysis of the deposited data

How the results depend on the processing

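No paired analysis was possible because no file gives a value per library, so leaving out a replicate could not be done either. Of 28 alternatives, of which 1 (leaving out 46 to 47 Mb) was chosen after seeing the data, 24 gave a count within 1.5 times the reported one or a value inside its 95% interval. Several of them, such as edges moved by 1 Mb, keep most of the same regions. Some intervals are wide, such as 3.43 to 20.3% for the share of calls towards ubiquitylated H2A.Z. The count of 24 is therefore no measure of robustness. With the authors' FDR at most 0.01, 13.9% of the regions were differential (26 of 187, against 24698 of 198179 over the series). With changes of at least 2-fold the share was 4.81% (9 of 187, against 7646 of 198179). Both are stricter limits and must call fewer. Among the 9 regions changed at least 2-fold, 0 were higher in ubiquitylated H2A.Z (0.0%), against 38.0% over the series. In regions with peaks of both lists, those higher in the total form had a median of -0.68 (log2). With peaks of an IDR at most 0.01 the stretch held 143 regions.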
